A study of Mus musculus with 12 samples.

Results

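Ribosome biogenesis was followed through 10 genes: Polr1a and Polr1b, subunits of RNA polymerase I; Fbl, Nop56 and Nop58, proteins of the box C/D small nucleolar ribonucleoproteins; the nucleolar proteins Ncl, Npm1 and Mybbp1a; the large subunit assembly factor Urb1; and Cad, an enzyme of pyrimidine synthesis. They were taken from the deposited count table by gene symbol. All 10 were present among its 55367 genes, and all 10 passed the filter on low counts that left 13384 genes for testing. The RNA came from whole blood of CB17-SCID mice, an immunodeficient strain, all of which carried a xenograft of HT1376, a bladder cancer line of human origin. Dosing lasted 11 days, with CPI-0209 (tulmimetostat, an inhibitor of the histone methyltransferases EZH2 and EZH1) at 35 mpk (mg per kg) by mouth once daily, or with vehicle. There were 12 libraries, 3 from treated mice bled 1 h after the last dose, 3 at 6 h, 3 at 24 h, and 3 from vehicle mice, whose collection time the labels do not give. Nothing in the labels says how the replicates of a group were housed or bled, so p-values measure the spread between these libraries.

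Ribosomes are built in the nucleolus. RNA polymerase I transcribes the ribosomal RNA precursor, box C/D ribonucleoproteins guide its methylation, and assembly factors fold, cut and export the subunits. The pathway needs a large supply of nucleotides, which Cad helps to provide, and it is known to be high in dividing blood precursors and low in mature blood cells.

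At 6 h after the last dose, Urb1 fell in blood of CPI-0209 mice, and it was the 1 member of 10 that passed the test there, where 4.84% of all tested genes did. No member passed at 1 h or at 24 h against vehicle, where 0.194% and 0.105% of genes did. Cad and Fbl were lower than vehicle in every 6 h library without passing the test, and both were called higher at 24 h than at 6 h, where 0.508% of genes were. Ncl, the polymerase subunits, Npm1, Nop56, Nop58 and Mybbp1a passed in no comparison. In whole blood, fewer cells of a type and less RNA per cell cannot be told apart.

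Library totals ran from 6496573 to 9978215 counts, and the 10 genes together took 0.00801% to 0.0223% of a library. Levels are CPM (edgeR's counts per 1e6) on library sizes scaled by the trimmed mean of M-values (TMM). These sizes were scaled down most at 6 h, by factors of 0.766 to 0.812, against 1.03 to 1.12 in vehicle, and the factors spread from 0.856 to 1.33 at 24 h. Replicates 1 and 3 at 24 h were the least alike pair of a group (r = 0.914 across genes, against 0.953 to 0.966 for the pairs within the other groups). Blood cell markers of granulocytes, monocytes, platelets and reticulocytes were detected.

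**Figure D1:**
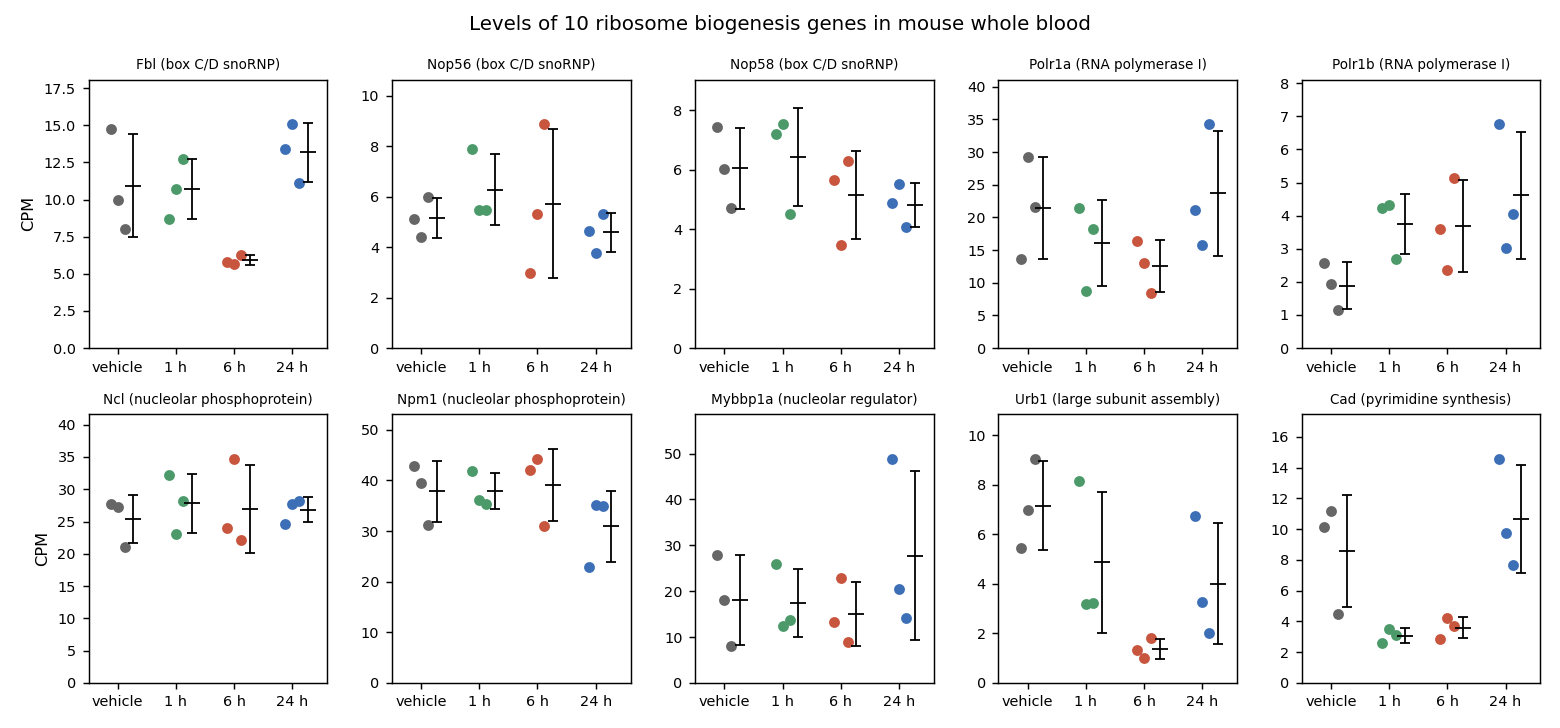
CPM of each gene (vertical axes, each from 0) in the 12 libraries, by group: vehicle and CPI-0209 at 1, 6 and 24 h after the last dose. Points are libraries, with the mean and SD (n = 3) beside them. The 3 Urb1 points at 6 h lie between 0.990 and 1.80 CPM, under all 9 others.

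Polr1a (ENSMUSG00000049553; GRCm38 chromosome 6, 71909053 to 71984935, plus strand) encodes the largest, catalytic subunit of RNA polymerase I. It had 13.6, 29.2 and 21.6 CPM in vehicle, 21.4, 8.78 and 18.2 CPM at 1 h, 16.4, 12.995 and 8.48 CPM at 6 h, and 21.1, 15.7 and 34.2 CPM at 24 h. The groups overlapped at every time, and the SD was 31.5% to 40.6% of the mean in each group. At 6 h the log2 fold change was -0.77 (standard error (SE) 0.38, adjusted p = 0.285, edgeR's quasi-likelihood test with Benjamini-Hochberg adjustment over all 13384 genes, as for every adjusted p here). The 95% interval of that change ran from -1.59 to 0.05. With library totals alone, a scaling that also lowered the median of all genes, it was -1.22 (adjusted p = 0.0424).

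Polr1b (ENSMUSG00000027395; chromosome 2, 129100995 to 129126594, plus strand) encodes the subunit that forms the active centre with Polr1a. Its levels were 2.56, 1.93 and 1.15 CPM in vehicle, 4.22, 4.33 and 2.69 CPM at 1 h, 3.58, 2.35 and 5.14 CPM at 6 h, and 6.75, 3.03 and 4.06 CPM at 24 h. The 1 h and the 24 h libraries lay above all vehicle libraries, and the 6 h libraries overlapped them. Against vehicle Polr1b differed at 1 h by a log2 fold change of 0.98 (SE 0.44) with an adjusted p of 0.692. It differed at 6 h by 0.96 (SE 0.44) with 0.246, and at 24 h by 1.29 (SE 0.44) with 0.461. These levels rest on 9 to 58 counts a library, the vehicle libraries holding 22, 18 and 9.

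Neither polymerase subunit passed at any time under TMM, and their values at 6 h had opposite signs. Of the 13 other genes of the RNA polymerase I machinery, all tested, 0 passed at 1, 6 or 24 h by edgeR's test, and their median log2 fold change at 6 h was -0.02. At an unadjusted p under 0.05 there was 1 at 1 h, Ttf1, which terminates ribosomal RNA transcription (17.6 ± 10.5 CPM at 1 h and 6.94 ± 0.933 CPM in vehicle, SD, n = 3, log2 fold change 1.34, adjusted p = 0.335). The subunits Polr1c and Polr1e, picked after their values were seen, averaged 2.29 ± 0.553 and 2.66 ± 0.844 CPM at 6 h, against 2.24 ± 0.853 and 1.80 ± 0.770 CPM in vehicle, and neither passed.

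Fbl (ENSMUSG00000046865; chromosome 7, 28169710 to 28179269, plus strand) encodes fibrillarin, the methyltransferase of the box C/D particles. It had 14.8, 9.996 and 8.02 CPM in vehicle, 8.71, 10.7 and 12.7 CPM at 1 h, 5.82, 5.69 and 6.30 CPM at 6 h, and 13.4, 15.1 and 11.1 CPM at 24 h. All 3 libraries at 6 h lay below the 9 others, and they lay closer together than those of any other group, with an SD of 5.37% of the mean. At 6 h the log2 fold change against vehicle was -0.88 (SE 0.26, 95% interval -1.44 to -0.32, adjusted p = 0.0719), which missed the threshold. It passed without replicate 3 at 24 h (adjusted p = 0.0494), with DESeq2's test (-0.87, adjusted p = 0.0392) and with library totals alone (-1.35, adjusted p = 0.0237).

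The table's gene Tulp4, whose values were looked up after the match was found, has an annotated transcript that covers positions 407 to 1096 of the 1197 bases of the Fbl transcript on the opposite strand, over 690 bases at 99.6% identity. Tulp4 averaged 82.7 ± 5.35 CPM at 6 h and 39.2 ± 4.48 CPM in vehicle (SD, n = 3), a log2 fold change of 1.08 (SE 0.17, adjusted p = 0.00205), or 0.61 (adjusted p = 0.0384) with library totals alone. Its change at 6 h thus had the opposite sign to the value of Fbl. The sources used here do not say whether counting used the strand, and how the reads of this stretch were divided was not tested. Processed pseudogenes matching Fbl held 81 counts over all libraries, 7.96% of its own 1018.

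Nop56 (ENSMUSG00000027405; chromosome 2, 130274430 to 130279313, plus strand) and Nop58 (ENSMUSG00000026020; chromosome 1, 59684971 to 59719044, plus strand) encode the paired core proteins that hold fibrillarin on the guide RNA. Nop56 had 5.11, 4.41 and 5.98 CPM in vehicle, 7.90, 5.47 and 5.49 CPM at 1 h, 2.99, 5.32 and 8.87 CPM at 6 h, and 4.66, 3.79 and 5.31 CPM at 24 h. Nop58 had 7.44, 6.02 and 4.71 CPM in vehicle, 7.22, 7.53 and 4.52 CPM at 1 h, 5.67, 3.47 and 6.30 CPM at 6 h, and 4.89, 5.52 and 4.06 CPM at 24 h. At 6 h the treated libraries of each overlapped the vehicle libraries. The log2 fold change at 6 h was 0.16 for Nop56 (95% interval -0.61 to 0.92, adjusted p = 0.856), with a value of -0.30 under scaling by library totals alone. For Nop58 it was -0.24 (95% interval -0.92 to 0.45, adjusted p = 0.737).

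Of the 3 box C/D proteins, Fbl stood at 0.544 of the vehicle level at 6 h, Nop58 at 0.848 and Nop56 at 1.11, and the difference between these genes was not tested. Of 15 other small nucleolar ribonucleoprotein genes, 14 were tested and 0 passed at any time by edgeR's test, with a median of -0.06 at 6 h. At an unadjusted p under 0.05 there were 0 at 1 h, 0 at 6 h and 2 at 24 h, beside 6.99%, 19.6% and 8.37% of all tested genes. Lower at 24 h was Snu13, the partner protein that binds the guide RNA (13.2 ± 1.30 CPM at 24 h and 19.3 ± 3.79 CPM in vehicle, SD, n = 3, log2 fold change -0.55, adjusted p = 0.563). Higher was Tcof1 (14.7 ± 9.97 CPM at 24 h and 7.58 ± 2.95 CPM in vehicle, log2 fold change 0.96, adjusted p = 0.596). The small nucleolar RNA genes annotated inside Nop56, Nop58 and Ncl all had 0 counts. Several of them share exon bases with the host gene on the same strand. Whether these libraries could hold such short RNAs was not tested, so the zeros do not show their absence.

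Ncl (ENSMUSG00000026234; chromosome 1, 86344719 to 86359400, minus strand) encodes nucleolin, an abundant nucleolar protein that binds the ribosomal RNA precursor. It had 27.8, 27.2 and 21.1 CPM in vehicle, 32.3, 23.0 and 28.1 CPM at 1 h, 24.0, 34.7 and 22.1 CPM at 6 h, and 24.7, 27.7 and 28.1 CPM at 24 h. The groups overlapped throughout. At 6 h the log2 fold change was 0.09, or -0.37 with library totals alone, and the 95% interval under TMM ran from -0.36 to 0.53 (adjusted p = 0.862).

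Npm1 (ENSMUSG00000057113; chromosome 11, 33152287 to 33163206, minus strand) encodes nucleophosmin, a histone chaperone of the nucleolus. It had 42.8, 39.6 and 31.2 CPM in vehicle, 41.9, 36.2 and 35.4 CPM at 1 h, 42.1, 44.2 and 31.0 CPM at 6 h, and 22.8, 35.1 and 34.8 CPM at 24 h. The lowest value was that of replicate 1 at 24 h, and each treated group overlapped vehicle. Npm1's log2 fold change was 0.05 at 6 h (95% interval -0.40 to 0.49, adjusted p = 0.931; -0.42 with library totals alone) and -0.29 at 24 h (95% interval -0.74 to 0.15, adjusted p = 0.774). The 8 pseudogenes that match Npm1 held 78 counts in all, 2.19% of its own.

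Mybbp1a (ENSMUSG00000040463; chromosome 11, 72441355 to 72451768, plus strand) encodes a nucleolar protein that represses RNA polymerase I transcription and acts in precursor processing. It had 27.9, 18.1 and 8.14 CPM in vehicle, 25.9, 12.4 and 13.7 CPM at 1 h, 13.3, 22.8 and 8.998 CPM at 6 h, and 48.8, 20.5 and 14.1 CPM at 24 h. It was the most variable of the 10 at 24 h, where the SD was 66.5% of the mean and replicate 1 stood far above the other two. The log2 fold change at 24 h was 0.63 (SE 0.50, adjusted p = 0.794) and -0.06 without that library. Its exons overlap those of Spns2 on the other strand by 131 bases, and Spns2 had 0 to 16 counts a library.

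Urb1 (ENSMUSG00000039929; chromosome 16, 90751527 to 90810413, minus strand) encodes a nucleolar scaffold of early large subunit precursors, a role known best from budding yeast. It had 5.46, 6.99 and 9.03 CPM in vehicle, 8.17, 3.19 and 3.23 CPM at 1 h, 1.34, 0.990 and 1.80 CPM at 6 h, and 6.75, 3.25 and 2.03 CPM at 24 h. The counts behind them were 9, 8 and 14 at 6 h and 47, 65 and 71 in vehicle. All 6 h libraries lay below all libraries of the other groups, whereas at 1 h and 24 h 1 library each lay within the vehicle range.

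At 6 h Urb1 fell 5.15-fold, a log2 change of -2.37 (SE 0.51, 95% interval -3.47 to -1.26, adjusted p = 0.0176). This was 1 of 10 members called at 6 h, where 4.84% of all tested genes were called and 0.785% were called lower. The call was lost without any of 4 libraries, with -2.35 (adjusted p = 0.0731) without replicate 1 at 6 h, -2.17 (0.0724) without replicate 2 at 6 h, -2.41 (0.0532) without vehicle replicate 2 and -2.18 (0.0625) without vehicle replicate 3. At 1 h the change was -0.57 (SE 0.46, adjusted p = 0.91), and at 24 h it was -0.82 (SE 0.46, adjusted p = 0.686). With 3 libraries a side, the exact permutation p (two-sided) has a floor of 0.1. Any gene whose groups do not overlap reaches it, as Urb1, Fbl and Cad did at 6 h.

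Between times, Urb1 at 6 h against 1 h had a log2 difference of -1.80 (SE 0.52, adjusted p = 0.1), and at 24 h against 6 h one of 1.55 (SE 0.52, adjusted p = 0.108). Neither passed, although the libraries did not overlap in either comparison. At 6 h against 1 h 13.8% of all genes lay wholly lower. The calls depended on the settings. At 6 h against 1 h it passed with DESeq2's test (adjusted p = 0.0203), no filter (0.00386), library totals alone (0.0415) and only the groups compared (0.0311). At 24 h against 6 h it passed with DESeq2's test (adjusted p = 0.044), no filter (0.018) and library totals alone (0.0229). Without replicate 3 at 24 h both passed, at -1.79 (adjusted p = 0.0298) and 1.84 (adjusted p = 0.0227), and without replicate 1 at 24 h that at 6 h against 1 h did (-1.83, adjusted p = 0.0323). Urb2, whose yeast counterpart binds the same precursors, averaged 7.04 ± 2.16 CPM at 6 h and 5.28 ± 1.29 CPM in vehicle (SD, n = 3, log2 fold change 0.42, adjusted p = 0.504), and was picked after its values were seen.

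Cad (ENSMUSG00000013629; chromosome 5, 31054780 to 31078479, plus strand) encodes the enzyme with carbamoyl phosphate synthetase, aspartate transcarbamylase and dihydroorotase activities, which starts pyrimidine synthesis. It had 10.1, 11.2 and 4.45 CPM in vehicle, 2.59, 3.54 and 3.12 CPM at 1 h, 2.84, 4.21 and 3.73 CPM at 6 h, and 14.6, 9.75 and 7.66 CPM at 24 h. All 6 libraries at 1 and 6 h lay below all vehicle libraries, the nearest of which was replicate 3 at 4.45 CPM, and the 24 h libraries overlapped vehicle. Cad's log2 fold change was -1.47 (SE 0.37, 95% interval -2.26 to -0.69, adjusted p = 0.153) at 1 h, and it was -1.25 (SE 0.37, 95% interval -2.03 to -0.47, adjusted p = 0.0658) at 6 h. Neither passed, and at 24 h the change was 0.31 (SE 0.34, adjusted p = 0.87). At 6 h the gene passed without vehicle replicate 3 (-1.57, adjusted p = 0.0234), without replicate 1 at 24 h (-1.27, adjusted p = 0.0353) and without replicate 3 at 24 h (-1.25, adjusted p = 0.0385). DESeq2's test called it at both 1 h (adjusted p = 0.0228) and 6 h (adjusted p = 0.026), and library totals alone gave -1.72 (adjusted p = 0.0264) at 6 h. With no filter it passed at 1 h (adjusted p = 0.00961) and at 6 h (adjusted p = 0.0176).

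Of the 9 other pyrimidine genes, all tested, 0 passed at any time by edgeR's test, with 0 at an unadjusted p under 0.05 at each time. Their median log2 fold change at 6 h was -0.34, with 6 of 9 below 0. Umps, which completes uridine monophosphate, averaged 5.65 ± 1.35 CPM at 6 h and 7.19 ± 0.860 CPM in vehicle (SD, n = 3, adjusted p = 0.479). Dhodh, the mitochondrial step, averaged 0.855 ± 0.217 CPM at 6 h and 1.72 ± 0.574 CPM in vehicle (adjusted p = 0.521). Both were picked after their values were seen.

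**Figure D2:**
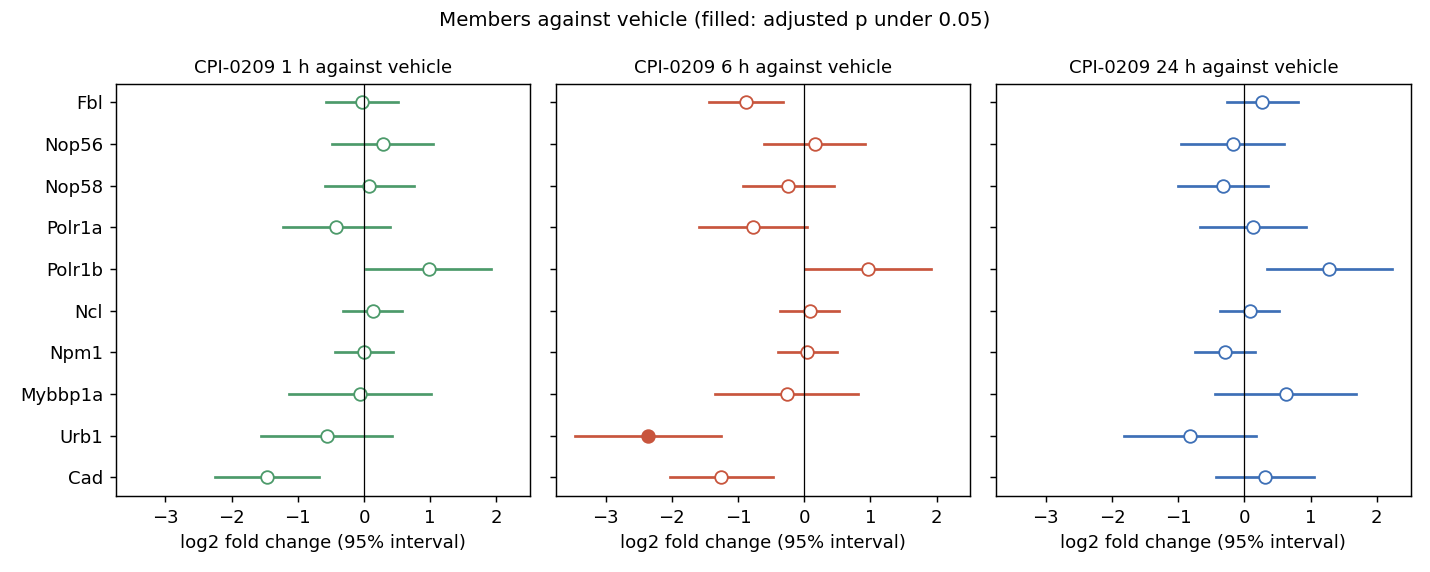
Log2 fold change of the 10 genes against vehicle (horizontal axes) at 1, 6 and 24 h, with 95% intervals, a filled point marking an adjusted p under 0.05. Urb1 at 6 h (-2.37) is the one filled point of the 30.

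The promoters of Urb1 and Cad, the members with the lowest log2 fold changes at 6 h, are shown beside that of Ncl, whose mean at 6 h differed little from vehicle (log2 fold change 0.09). Each is 250 bases up to the transcription start in RefSeq (GRCm38.p6), printed 5′ to 3′ on the gene's strand. They lie at chr16:90810414-90810663 on the minus strand for Urb1, chr5:31054530-31054779 on the plus strand for Cad and chr1:86359456-86359705 on the minus strand for Ncl. Capitals mark CCGCCC, which is GGGCGG (a GC box) read on the other strand.
Urb1: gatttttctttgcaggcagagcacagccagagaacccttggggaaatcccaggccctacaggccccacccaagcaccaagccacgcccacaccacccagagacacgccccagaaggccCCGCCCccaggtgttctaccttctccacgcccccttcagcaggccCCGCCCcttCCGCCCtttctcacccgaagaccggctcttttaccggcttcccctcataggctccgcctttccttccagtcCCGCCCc
Cad: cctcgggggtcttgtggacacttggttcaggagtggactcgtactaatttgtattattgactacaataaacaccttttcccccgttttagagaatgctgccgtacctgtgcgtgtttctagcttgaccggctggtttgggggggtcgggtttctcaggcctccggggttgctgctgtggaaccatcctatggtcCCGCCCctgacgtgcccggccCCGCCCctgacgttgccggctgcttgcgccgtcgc
Ncl: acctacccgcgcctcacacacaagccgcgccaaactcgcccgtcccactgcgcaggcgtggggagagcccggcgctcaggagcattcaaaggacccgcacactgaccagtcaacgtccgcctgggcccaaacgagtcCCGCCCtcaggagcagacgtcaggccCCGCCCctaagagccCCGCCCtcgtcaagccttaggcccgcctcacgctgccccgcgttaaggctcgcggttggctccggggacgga
Urb1 holds 4 such matches, between 132 and 7 bases before the start, Cad holds 2 at 56 and 35 bases, and Ncl holds 3. RefSeq entries matched 8 of the 10 genes, Fbl and Npm1 being the others. Counting both strands, GGGCGG was in 7 of 8 and in 32.7% of 32851 mouse promoters of the same length, a motif chosen after the sequences were seen. CACGTG, the E-box, was in 0 of 8 and in 6.02% of all, and TCTCGCG in 1, Nop58, and in 2.10% of all. These are matches of letters only.

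Against vehicle the members were called as follows. At 1 h 0 of 10 were called by edgeR, where 0.194% of all tested genes were called, and 2 had an unadjusted p under 0.05 (Polr1b and Cad), as did 6.99% of genes. At 6 h 1 was called, and 4 had an unadjusted p under 0.05, as did 19.6% of genes. At 24 h 0 were called, where 0.105% of genes were, and Polr1b alone had an unadjusted p under 0.05, as did 8.37% of genes. For the mean of the 3 times 0 were called, where 0.934% of genes were, and 3 had an unadjusted p under 0.05, as did 10.5% of genes. Limma-voom called 0 members at 1 h, 1 at 6 h and 0 at 24 h, beside 0.127%, 4.98% and 0.0523% of all genes. DESeq2 called 1, 3 and 0, and it also called more of all genes than edgeR, 1.21% at 1 h, 8.67% at 6 h and 0.68% at 24 h.

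At 6 h 3 of 10 members lay wholly below the vehicle libraries, as did 13.5% of all tested genes, and 0 lay wholly above, where 15.8% of genes did. At 1 h 1 lay below and 1 above, where the shares over all genes were 8.44% and 8.92%. At 24 h Polr1b alone lay above, as did 6.34% of genes, and 0 lay below, where 5.61% did. The median log2 fold change of the members was -0.01 at 1 h, -0.25 at 6 h and 0.11 at 24 h, beside -0.02, -0.04 and 0.01 over all tested genes. Scaling by library totals alone moved the median of all genes at 6 h by -0.46, to -0.50, and put that of the members at -0.72. The share of calls at 6 h that were higher was 83.8% under TMM and 18.8% with library totals alone.

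The 2 members called between times were Cad and Fbl, both higher at 24 h than at 6 h. Cad averaged 10.7 ± 3.54 CPM at 24 h and 3.59 ± 0.696 CPM at 6 h (SD, n = 3), a log2 difference of 1.56 (SE 0.37, adjusted p = 0.0473). Fbl averaged 13.2 ± 1.99 CPM at 24 h and 5.94 ± 0.319 CPM at 6 h, a difference of 1.15 (SE 0.26, adjusted p = 0.0447). In this comparison 1.76% of all tested genes were called and 0.508% were called higher. All 24 h libraries lay above all 6 h libraries for these genes and for Urb1, 3 of 10 members, as for 10.5% of all genes.

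Both calls were close to the threshold. Cad kept its call among the 12 fits that left out 1 library only without replicate 3 at 24 h and without vehicle replicate 3, and in the other 10 its adjusted p was 0.0576 to 0.157. Fbl kept its call only without replicate 3 at 24 h and without vehicle replicate 1, with 0.0504 to 0.139 in the other 10. With only the 2 groups compared, both had an adjusted p of 0.194. At 6 h against 1 h 0 members were called, where 0.493% of genes were, and at 24 h against 1 h 0 were called, where 0.0224% were. In that last comparison Cad differed by 1.79 (SE 0.37, unadjusted p = 0.000243, adjusted p = 0.324), and it passed without replicate 3 at 24 h (1.97, adjusted p = 0.0217). It also passed with DESeq2's test (1.77, adjusted p = 0.00613) and with no filter (1.79, adjusted p = 0.000872).

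Of 142 other genes of ribosome biogenesis and pyrimidine synthesis, 137 were tested, and 0 passed at 1, 6 or 24 h by edgeR's test. Their median log2 fold change was -0.01 at 1 h, -0.07 at 6 h and 0.01 at 24 h. At an unadjusted p under 0.05 there were 6 at 1 h, 7 at 6 h and 5 at 24 h. These are 4.38%, 5.11% and 3.65% of the 137, below the 6.99%, 19.6% and 8.37% of all tested genes. DESeq2 called 0, 3 and 1 of the 137, beside 1.21%, 8.67% and 0.68% of all tested genes.

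At 6 h 6 of those 7 were lower, 4.38% of the 137 beside 8.05% of all tested genes, and 0 of the 7 passed. Wdr3, of the small subunit processome, averaged 9.18 ± 2.67 CPM at 6 h and 17.8 ± 4.53 CPM in vehicle (SD, n = 3), a log2 fold change of -0.95 (SE 0.26, adjusted p = 0.0544). Pes1, of the PeBoW complex of large subunit assembly, averaged 9.02 ± 2.07 CPM at 6 h and 19.9 ± 7.48 CPM in vehicle (log2 fold change -1.14, adjusted p = 0.0915). Mdn1, the AAA ATPase that remodels large subunit precursors, averaged 12.1 ± 1.23 CPM at 6 h and 31.5 ± 22.3 CPM in vehicle (-1.38, adjusted p = 0.103). Mak16, Utp4 and Nop2 were the other lower ones and Nop53 the higher one.

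By list the medians at 6 h were -0.02 for the 42 genes of the small subunit processome, -0.18 for the 47 tested of large subunit assembly and -0.08 for the 12 tested of the RNA exosome. The 10 tested genes of the Myc network, a transcription programme known to drive ribosome synthesis, had a median of -0.03 and 0 calls at 6 h. Myc itself, picked after its values were seen, averaged 4.74 ± 0.186 CPM at 6 h and 4.01 ± 1.82 CPM in vehicle (SD, n = 3, adjusted p = 0.772). Of 13 purine synthesis genes 0 passed. Among 8 genes that regulate ribosomal DNA chromatin, Phf8, a histone demethylase, rose to 169.9 ± 17.2 CPM at 6 h, against 102.7 ± 7.43 CPM in vehicle. Its log2 fold change was 0.73 (adjusted p = 0.011), a call lost with library totals alone (0.27, adjusted p = 0.24). Of 77 ribosomal protein genes, a list taken by symbol after the data were seen, 11 rose at 6 h under TMM, among them Rpl7 (1.19), Rpl27 (0.76) and Rpl19 (0.82), with a median of 0.52. These genes have many near-identical pseudogenes, so their counts are uncertain, and with library totals alone 2 rose and 1 fell, with a median of 0.065.

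**Figure D3:**
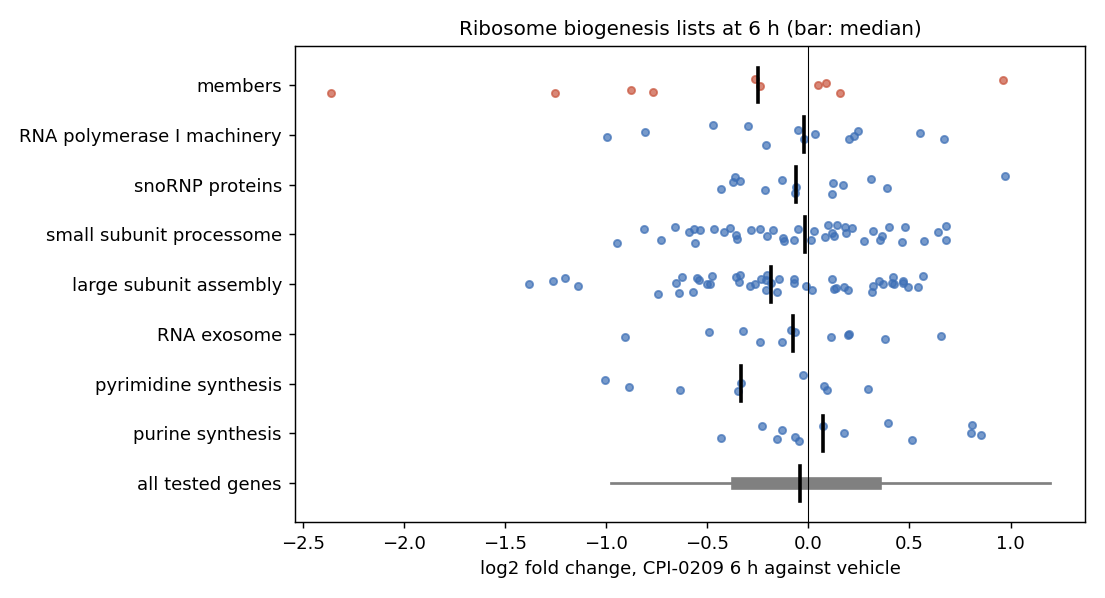
Log2 fold change at 6 h against vehicle (horizontal axis) of each tested gene, by list (rows), with the median as a black bar. The bottom row gives all 13384 tested genes, with a thick line for the middle 50% of them and a thin line for the central 90%. The members' median is -0.25 and that of all genes -0.04.

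At 6 h reticulocyte markers were higher than in vehicle, while Urb1, Fbl and Cad were lower. Reticulocytes, the last precursors of red cells, still hold RNA. The mean log2 CPM of 28 markers was 7.74 to 7.99 in vehicle, 8.22 to 8.41 at 1 h, 9.09 to 9.24 at 6 h and 7.22 to 8.77 at 24 h. Their summed level was 126230 to 141750 CPM at 6 h and 68842 to 77925 CPM in vehicle. At 6 h 15 of 28 passed, all higher, led by Gata1, the erythroid transcription factor (log2 fold change 1.73), and Epb42, of the red cell membrane skeleton (3.15), and none was at 0. With library totals alone 13 of 28 passed, all higher.

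Over the 12 libraries the correlation of log2 CPM with the reticulocyte mean was -0.81 for Urb1, -0.80 for Fbl and -0.71 for Cad, and -0.54 to 0.45 for the other 7. With the mean of 15 neutrophil markers it was -0.81 for Mybbp1a, -0.62 for Ncl, -0.62 for Fbl, -0.36 for Urb1 and -0.34 for Cad, and -0.21 to 0.20 for the other 5. These values describe libraries that share TMM scaling and depth. Within the 24 h group, replicate 3 had the highest reticulocyte mean, 8.77, and the lowest Urb1, Cad and Fbl of the 3. It also had the lowest Nop58 (4.06 CPM) and Mybbp1a (14.1 CPM). Polr1a (34.2 CPM), Nop56 (5.31 CPM) and Ncl (28.1 CPM) were highest in it, and Polr1b and Npm1 lay between. These are values of 1 library. Its reticulocyte mean was above the 8.22 to 8.41 of the 1 h libraries. Cad in this library, 7.66 CPM, was above the 2.59 to 3.54 CPM at 1 h. Its Fbl, 11.1 CPM, lay within the 8.71 to 12.7 CPM at 1 h. Its Urb1, 2.03 CPM, lay below the 3.19 to 8.17 CPM at 1 h. The part of these markers, or of those that follow, in the levels of the members was not tested.

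Markers of other cells moved at 6 h as well. Of 18 markers of cycling cells 2 passed, Ube2c (397.1 ± 21.1 CPM at 6 h and 97.2 ± 21 CPM in vehicle, SD, n = 3) and Nusap1 (741.4 ± 72.9 CPM at 6 h and 161.5 ± 22.3 CPM in vehicle). The other 16 summed to 624.9 to 780.1 CPM at 6 h and 432.6 to 518.5 CPM in vehicle, and the median of all 18 was 0.41 under TMM and -0.03 with library totals alone. Of 14 platelet markers 1 passed, Thbs1 (log2 fold change 1.44), with 13 of 14 above 0 and a median of 0.55 under TMM and 0.08 with library totals alone.

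Of 15 neutrophil markers Mmp8, a collagenase of neutrophil granules, rose (1.38), a call lost with library totals alone, under which 3 of the 15 were called lower. The median of the 15 was 0.44 under TMM, with 5 below 0, and -0.012 with library totals alone. Of 13 monocyte markers Ccr2, a chemokine receptor, fell (-0.63), and 3 were called lower with library totals alone. Under TMM 10 of the 13 were below 0 and 3 above, with a median of -0.18. Of 9 progenitor markers tested Kit (1.93) and Gata2 (0.88) rose, Gata2 without a call under library totals alone. Of these 9, 3 were below 0, with a median of 0.37 under TMM and -0.097 with library totals alone. Lat, an adaptor of T cell receptor signalling, rose (1.25) among the 3 of 10 T cell markers that were tested. It held 1506 counts over all libraries, against 152 for Cd3d and 120 for Bcl11b, the others tested. Cd3e (16 counts), Trac (24) and Cd4 (36) were among those left out by the filter. Of 10 NK cell markers tested 0 passed by edgeR's test, with 1 at an unadjusted p under 0.05. All 10 were above 0 under TMM, with a median of 0.23, and the median was -0.235 with library totals alone.

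**Figure D4:**
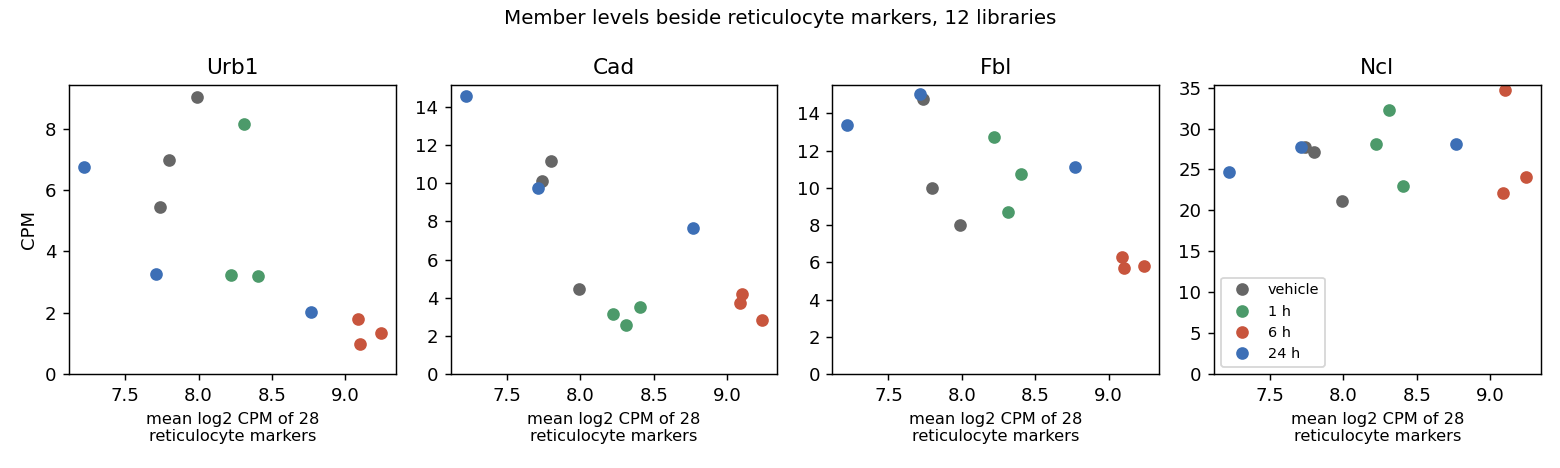
CPM of Urb1, Cad, Fbl and Ncl (vertical axes, from 0) against the mean log2 CPM of 28 reticulocyte markers (horizontal axes) in the 12 libraries, coloured by group. The 6 h libraries lie at 9.09 to 9.24 on the horizontal axes, with the lowest Urb1 and Fbl.

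Among the 45 pairs of members the correlation of log2 CPM over the 12 libraries ran from -0.38 to 0.63 with a median of 0.06, and 26 pairs were over 0. The highest was that of Fbl and Cad. Fbl and Urb1 stood at 0.50, and Cad and Npm1 at -0.38. The genes most like each in the same measure were, for Urb1, Slc25a25 (a mitochondrial carrier, 0.94), Rusc2 (0.93) and Il18rap (a subunit of the interleukin-18 receptor, 0.92). For Cad they were Bax (a pore-forming protein of apoptosis, 0.96), Fcsk (fucose kinase, 0.91) and Esr1 (an oestrogen receptor, 0.91), and for Fbl Snx30 (a sorting nexin, 0.92), Abca9 (0.92) and Ctns (the lysosomal cystine transporter, 0.91). Each is among the 3 highest over the tested genes, predicted ones left out, in only 12 libraries. Members that passed in no comparison also had high top values, 0.94 for Npm1, 0.95 for Mybbp1a and 0.84 for Ncl. Shared regulation was not tested.

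Levels between genes were compared as CPM per kb of annotated exon in the vehicle group. The length was that of all annotated exons of a gene merged, 4209 bases for Fbl and 5803 for Mybbp1a. The transcripts used to search for copies have 1197 and 4358 bases. The order below therefore holds for merged exons, and that by single transcripts was not computed. Npm1 stood highest at 14.2 CPM per kb, followed by Mybbp1a at 3.11, Fbl at 2.60, Ncl at 2.49, Polr1a at 1.81, Nop56 at 1.26, Cad at 1.05, Urb1 at 0.874, Nop58 at 0.563 and Polr1b at 0.324. At 6 h Urb1 had 0.168 CPM per kb, the lowest of the 10. Apart from Npm1, which stood clear of Mybbp1a, neighbours in this order overlapped in their vehicle libraries.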

How the data were processed

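RNA was taken from 12 whole blood samples with a PAXgene kit, depleted of ribosomal RNA and read as paired ends on an Illumina HiSeq, per the labels' protocols. The authors deposited whole-number counts per gene for 55367 mouse Ensembl genes, without scaling. RSEM is named without a version, per the submitters' processing notes, and the counts may be rounded estimates. Those notes list a human build beside mouse gene identifiers, and the aligner, annotation release and strand setting were not given in the sources used here. For positions, the annotation was GENCODE M21 (GRCm38), which held 55035 of the identifiers.

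The 12 libraries, in 4 groups of 3, were fitted together in edgeR 4.0.16 (R 4.3.3): filterByExpr by group, TMM, a quasi-likelihood model of 4 group means, and p-values adjusted by Benjamini-Hochberg over 13384 genes, with a threshold of 0.05. Log2 CPM used a prior count of 2. Alternatives were limma 3.58.1 (voom), DESeq2 1.42.0, other scalings and filters, the replicate block, and each library left out. The code was tested on simulated data. Near-identical copies were found with BLAST 2.17.0, from matches of at least 200 bases at 90% identity. All members are given, with up to 4 genes of each other list that passed against vehicle; genes with an unadjusted p under 0.05, and those said to be so, were picked after their values were seen. The members and lists were chosen with earlier results of these data known.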

Additional observations from a re-analysis of the deposited data

Results flagged for a closer look

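Fbl and Cad differed between collection times, tested as a contrast of the treated groups. Fbl was higher at 24 h than at 6 h by 1.15 on the log2 scale (adjusted p = 0.0447, edgeR), and all 3 of the 24 h libraries lay above the 3 of 6 h, as for 10.5% of all tested genes. Cad was higher by 1.56 (adjusted p = 0.0473), likewise with all 3 libraries above. Each call was lost in 10 of the 12 fits that left out 1 library, and with only the groups compared (adjusted p = 0.194 for both). The reticulocyte marker mean was 7.22 to 8.77 at 24 h and 9.09 to 9.24 at 6 h, and its part in either difference was not tested.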

How the results depend on the processing

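Depth limits these values: Urb1 had 8 to 14 counts a library at 6 h. The alternatives for single genes between the 3 times were chosen after seeing the data. Urb1 at 6 h against vehicle kept its direction in all alternatives (-2.81 to -2.17) and its call except without the 4 libraries named above. The shares in brackets are of all tested genes called in the same fit. Members called at 6 h numbered 1 as reported (4.84%), 4 with library totals alone (13.7%) and 2 with no filter (4.89%). DESeq2's test gave 3 (8.67%), and leaving out 1 library 0 to 3 (1.74% to 8.99%). At 24 h against 6 h members called numbered 2 as reported (1.76%), 4 with library totals alone (22%) and 5 with no filter (5.71%). DESeq2's test called Cad, Fbl and Urb1 there (9.1%). Only the groups compared gave 0 (0 of 12315 genes), and leaving out 1 library 0 to 3 (0% to 15.9%). At 6 h against 1 h members called numbered 0 as reported (0.493%) and 1 with no filter (4.74%). Library totals alone (5.04%), DESeq2's test (6.34%) and only the groups compared (13.8%) gave 2 each. Leaving out 1 library gave 0 to 1 (0.0289% to 9.12%). At 1 h against vehicle no filter (1.11%) and DESeq2's test (1.21%) each called 1 member. At 24 h against 1 h no filter (0.414%) and DESeq2's test (0.232%) each called 1. There, leaving out 1 library gave 0 to 1 (0% to 1.46%). For the mean of the 3 times, no filter gave 1 (1.93%), and leaving out 1 library 0 to 1 (0.102% to 2.56%). Of the other ribosome biogenesis genes, 0 as reported, 8 were called at 6 h with library totals alone (13.7%). No filter (4.89%) and DESeq2's test (8.67%) called 3 each. The filter of 5 CPM (7.2%) and only the groups compared (11.1%) called 1 each. With 1 library left out 0 to 3 were called (1.74% to 8.99%). No filter gave 3 at 1 h (1.11%) and 2 at 24 h (0.916%), and DESeq2's test 1 at 24 h (0.68%). Library totals alone moved the split of all calls at 6 h to 18.8% higher, from 83.8% under TMM. The cause of these changes was not tested.

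Every change of sign was in a log2 value that was called in neither fit. With library totals alone, those at 6 h against vehicle became -0.37 for Ncl, -0.30 for Nop56 and -0.42 for Npm1. The mean of the 3 times became -0.021 for Mybbp1a, -0.045 for Ncl and -0.053 for Nop56. Between times, 24 h against 6 h became 0.50 for Ncl, 0.17 for Nop56, 0.46 for Nop58 and 0.15 for Npm1, 24 h against 1 h 0.023 for Ncl, and 6 h against 1 h -0.20 for Cad and -0.38 for Npm1. Npm1 at 1 h against vehicle became 0.018 with DESeq2 size factors and its test, 0.002 with the filter of 5 CPM and limma-voom, and 0.017 with only the groups compared. Fbl at 1 h became 0.009 with limma-voom. Ncl at 24 h against 6 h became 0.013 with the filter of 5 CPM and limma-voom, and 0.012 with only the groups compared.

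Same-numbered replicates of different groups did not deviate together (r of their deviations -0.11 to 0.17 over 18 pairs, 2 of them over 0.1, and 6 of 12 libraries closest to their own number), so the numbers were not taken to pair the samples. With the replicate block, as many members were called in every comparison. Its changes of sign were Mybbp1a at 1 h (0.044), Npm1 at 1 h (0.007) and Ncl at 24 h against 6 h (0.006).

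With 1 library left out, values that crossed 0 against vehicle at 1 h ran from -0.18 to 0.27 for Fbl, -0.45 to 0.41 for Mybbp1a, -0.053 to 0.30 for Nop58 and -0.10 to 0.11 for Npm1. At 6 h they ran from -0.70 to 0.18 for Mybbp1a, -0.14 to 0.21 for Ncl, -0.30 to 0.46 for Nop56 and -0.089 to 0.19 for Npm1. At 24 h they ran from -0.055 to 1.09 for Mybbp1a, -0.024 to 0.15 for Ncl and -0.23 to 0.42 for Polr1a. For the mean of the 3 times they ran from -0.38 to 0.067 for Fbl, -0.24 to 0.56 for Mybbp1a, -0.009 to 0.17 for Ncl, -0.066 to 0.21 for Nop56, -0.30 to 0.013 for Nop58 and -0.20 to 0.014 for Npm1. At 6 h against 1 h they ran from -0.63 to 0.17 for Mybbp1a, -0.27 to 0.083 for Ncl, -0.58 to 0.18 for Nop56, -0.048 to 0.19 for Npm1 and -0.34 to 0.23 for Polr1b. At 24 h against 6 h they ran from -0.13 to 0.22 for Ncl, -0.63 to 0.13 for Nop56, -0.31 to 0.089 for Nop58 and -0.043 to 0.64 for Polr1b. At 24 h against 1 h they ran from -0.007 to 1.08 for Mybbp1a, -0.17 to 0.055 for Ncl, -0.10 to 0.53 for Polr1b and -0.86 to 0.32 for Urb1.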
